A study of Mus musculus with 24 samples.

Results

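The genes described here are the SR and hnRNP splicing factors of mouse liver, together with the SF3 proteins of the U2 particle and 3 related nuclear RNA-binding proteins. They were taken from the deposited gene table by symbol: every gene named Srsf, Hnrnp, Sf3a or Sf3b followed by its number or letter, plus Sfpq, Safb and Sltm. This gave 43 of 18314 genes, made up of 11 SR genes, 20 hnRNP genes, 9 SF3 genes and the 3 named singly. The set was proposed because several of its genes lay lower in HFD plus HQHF livers than in control livers, so the members were chosen on the values of that comparison, which are given for the members as a description with no test.

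The livers came from male C57BL/6 mice of wild-type genotype, a common laboratory strain, and the long RNA of 12 of them was sequenced, 4 in each of 3 groups. HFD plus HQHF mice ate a high-fat diet and, after 12 weeks of it, received HQHF, the Huatanqushihuoxue Formula, by gavage. HFD mice ate the high-fat diet without the formula, as a model of fatty liver disease linked to metabolism, and control mice ate a normal diet. Each group of the study had 9 mice, and HQHF was given at low, medium and high doses. The labels do not say which dose stands behind these libraries, nor the age of the mice.

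Pre-mRNA splicing removes introns through the spliceosome, whose U2 particle recognises the branch point of an intron with the help of the SF3a and SF3b complexes. SR proteins bind exons and mostly favour their inclusion, and their activity is set by phosphorylation of their arginine and serine repeats. The hnRNP proteins coat nascent transcripts and often oppose inclusion, and they also act in export, stability and packaging of RNA. Many of these genes control their own level through exons whose inclusion sends the transcript to decay, so a gene's total count does not say how much of it encodes protein. Loss of Srsf3 from mouse hepatocytes is known to disturb lipid and glucose metabolism.

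In the domain annotation of the authors' deposited table, 31 of the 43 genes carried an RRM, the domain with which most of these proteins hold RNA. It was listed for 10 of 11 SR genes, 16 of 20 hnRNP genes, 2 of 9 SF3 genes and all 3 of Sfpq, Safb and Sltm. The 4 hnRNP genes without it were Hnrnpk, listed with KH domains, and Hnrnpu, Hnrnpul1 and Hnrnpul2, listed with a SAP domain. Srsf12 had no domain listed.

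The promoters of the 5 genes called in the main fit below (edgeR with TMM scaling) are shown because the group results turn on these genes. The sequences are RefSeq's for GRCm38.p6, each 300 bases long, from 250 bases before the annotated start to 50 after it, written 5′ to 3′ on the gene's own strand. Capitals mark 3 motifs on either strand: the CCAAT box, the ETS-type motif CCGGAAG and the GC box GGGCGG. The Safb window is chr17:56584732-56585031 on the plus strand and Srsf2 is chr11:116853045-116853344 on the minus strand. Hnrnpc is chr14:52103972-52104271 on the minus strand, Sf3b6 is chr12:4817358-4817657 on the plus strand and Sfpq is chr4:127021051-127021350 on the plus strand.
Safb: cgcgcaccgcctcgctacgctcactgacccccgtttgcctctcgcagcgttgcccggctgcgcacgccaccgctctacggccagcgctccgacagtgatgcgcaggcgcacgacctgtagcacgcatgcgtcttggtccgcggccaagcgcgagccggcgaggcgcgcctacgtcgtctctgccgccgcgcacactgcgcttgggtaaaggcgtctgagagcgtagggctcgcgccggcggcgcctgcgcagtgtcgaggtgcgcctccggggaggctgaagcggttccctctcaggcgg
Srsf2: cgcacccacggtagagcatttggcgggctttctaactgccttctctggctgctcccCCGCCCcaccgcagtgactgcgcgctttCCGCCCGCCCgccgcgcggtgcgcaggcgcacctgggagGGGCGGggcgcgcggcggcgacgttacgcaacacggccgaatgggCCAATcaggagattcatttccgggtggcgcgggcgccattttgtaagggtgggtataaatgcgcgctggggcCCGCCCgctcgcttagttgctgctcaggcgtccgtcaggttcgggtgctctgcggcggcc
Hnrnpc: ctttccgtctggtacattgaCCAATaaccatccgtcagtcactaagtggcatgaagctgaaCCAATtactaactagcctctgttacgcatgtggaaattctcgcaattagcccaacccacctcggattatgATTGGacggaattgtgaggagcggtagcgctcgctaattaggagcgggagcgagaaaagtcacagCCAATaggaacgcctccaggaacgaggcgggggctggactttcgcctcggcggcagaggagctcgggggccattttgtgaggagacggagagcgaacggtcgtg
Sf3b6: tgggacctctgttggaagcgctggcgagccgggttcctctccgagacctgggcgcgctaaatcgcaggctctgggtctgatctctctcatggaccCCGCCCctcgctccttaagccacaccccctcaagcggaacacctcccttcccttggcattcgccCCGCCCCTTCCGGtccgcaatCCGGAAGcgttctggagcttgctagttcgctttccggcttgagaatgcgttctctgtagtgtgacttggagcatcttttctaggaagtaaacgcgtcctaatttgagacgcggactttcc
Sfpq: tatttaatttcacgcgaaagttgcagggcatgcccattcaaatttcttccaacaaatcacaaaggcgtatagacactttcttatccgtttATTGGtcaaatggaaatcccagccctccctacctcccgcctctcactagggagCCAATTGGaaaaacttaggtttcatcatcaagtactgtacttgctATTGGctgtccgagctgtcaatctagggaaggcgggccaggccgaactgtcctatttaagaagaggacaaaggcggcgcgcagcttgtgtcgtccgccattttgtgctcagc

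The windows of Hnrnpc and Sfpq each held 4 matches to CCAAT and none to the other motifs, and a pair of those in Sfpq overlap as CCAATTGG. Srsf2 held 5 matches to GGGCGG, of which some overlap, and 1 to CCAAT. Sf3b6 held 2 matches to CCGGAAG and 2 to GGGCGG, with an overlap between the motifs, and Safb held none of the 3 motifs and 47 CpG dinucleotides. Of the 43 genes, 39 had a window in the table. A match to CCAAT stood in 19 of the 39 (48.7%) and in 37.9% of all 27025 windows, GGGCGG stood in 28 (71.8%) against 35.9%, and CCGGAAG in 12 (30.8%) against 9.12%. The members' windows were rich in CpG, with a median of 27 per window against 7 in all windows, and had a median GC content of 63.3% against 52.7%. TATAAA was found in 5 of the 39 (12.8%) against 14.2% of all windows, CACGTG in 4 (10.3%) against 7.24%, and TGACGTCA in 0 against 1.88%. All motifs were searched on both strands, and a match describes letters, not binding. All windows include those of genes not tested in these livers. The members were not compared with the windows of tested genes alone, so these shares are not shown to be particular to splicing factors.

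Among the 12 libraries, HFD plus HQHF 3 and control 2 lacked the hepatocyte gene Alb (albumin) almost wholly, at 0.743 CPM in HFD plus HQHF 3 and 46.4 CPM in control 2, while the other 10 had 35050 to 92210 CPM. Adipoq, a gene of fat cells, reached 1254 CPM in HFD plus HQHF 3 and 4543 CPM in control 2, and at most 41.2 CPM elsewhere. Results are therefore from the other 10 libraries, 3 of HFD plus HQHF, 4 of HFD and 3 of control, with total counts of 36198931 to 46454404. With all 12 libraries, 0 members were called in either tested comparison by edgeR's quasi-likelihood test, and an unadjusted p under 0.05 was found for 10 members and 13.3% of all genes in HFD against control and for 2 members and 11.9% of all genes in HFD plus HQHF against HFD. Levels are in CPM, the count per gene relative to the library's size, corrected by TMM, a factor that lines up the bulk of genes between libraries. The table gave no transcript lengths, so levels of different genes are not compared.

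In HFD livers, 4 of the 42 tested members were lower than in control livers, namely Safb, Srsf2, Hnrnpc and Sf3b6, and 0 were higher. The members called lower were 9.52% of those tested, where 9.89% of all 13832 tested genes were called lower and 16.3% higher. A call means an adjusted p under 0.05 from edgeR's quasi-likelihood test with Benjamini-Hochberg adjustment over all genes. At an unadjusted p under 0.05, 11 members were lower and 0 higher, where 16.3% of all genes were lower and 24.6% higher. DESeq2 called 11 members lower and 0 higher, where it called 14.6% of all genes lower and 19.6% higher. The 11 of DESeq2 were the 4 named above with Srsf1, Srsf6, Hnrnpab, Hnrnph2, Hnrnpm, Hnrnpu and Sf3b1. Both tested comparisons share libraries with the comparison that chose the set, the control libraries here and the HFD plus HQHF libraries in the other, so neither is independent of the choice. The remaining member, Srsf12, had 0 to 11 reads per library and was not tested.

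These directions rest on the scaling. With TMM the median log2 fold change of the 42 members in HFD against control was -0.197 and that of all tested genes 0.058, and 33 members lay below 0 and 9 above, where 46% of all genes lay below and 54% above. Scaled to library totals alone, the same medians were 0.398 and 0.657, 40 of the 42 members and 89.8% of all genes lay above 0, and 9 members were called higher and 0 lower, where 50.9% of all genes were called higher and 1.11% lower. Relative to the median of all genes, the members' median lay lower under both scalings. A change of scaling moves all genes by nearly the same amount, so the second scaling is no separate support for this. The TMM factors were 0.823, 0.939 and 0.847 in HFD plus HQHF libraries, 1.20, 1.22, 1.42 and 1.25 in HFD libraries and 0.864, 0.892 and 0.763 in control libraries, so the factors of HFD libraries did not overlap those of the others.

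**Figure D1:**
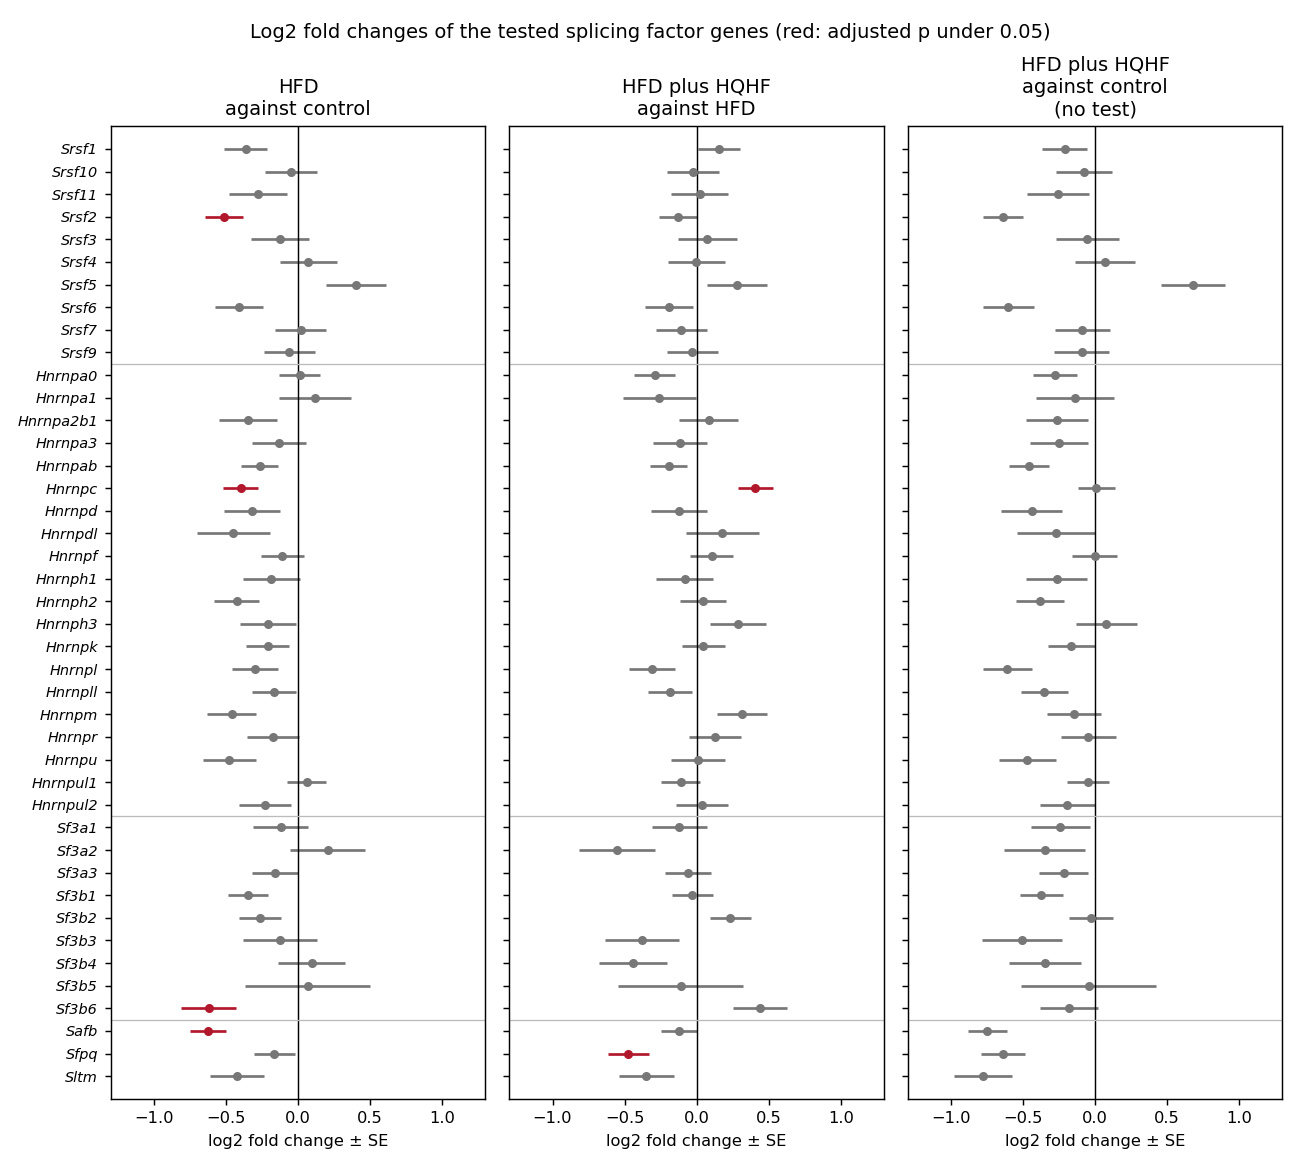
Log2 fold change ± SE (x axis) of each tested splicing factor gene (y axis, grouped as SR, hnRNP, SF3 and then Safb, Sfpq and Sltm) with TMM scaling, for the 3 comparisons named above the panels. Red points passed the test: 4 genes in the left panel, all below 0, and Hnrnpc above 0 and Sfpq below 0 in the middle panel; the right panel, which shows the comparison that chose the genes, has no test.

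Among the SR genes, Srsf2, a core SR protein that stays in the nucleus and binds exonic enhancers, was lower in HFD livers. It had 22.9, 27.7, 27.2 and 24.5 CPM in HFD livers, against 34.4, 36.5 and 38.6 CPM in control livers. In HFD plus HQHF livers it had 19.8, 25.4 and 25.1 CPM. Every control library stood above all 7 libraries on the high-fat diet, and the HFD plus HQHF and HFD libraries overlapped. The log2 fold change was -0.51 ± 0.13 (SE) in HFD against control (edgeR quasi-likelihood adjusted p = 0.0185), -0.13 ± 0.13 in HFD plus HQHF against HFD (adjusted p = 0.518) and, untested, -0.64 ± 0.14 in HFD plus HQHF against control. The call in HFD against control was lost without control 4 (edgeR adjusted p = 0.0554), and with library totals the log2 fold change was 0.09. The RefSeq span of Srsf2 overlaps that of Mfsd11, and whether counting used strand is not given in the sources used here, so reads of the 2 genes may not have been told apart.

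Srsf5 is known as a gene induced by insulin in rat hepatoma cells. It was the member with the highest log2 fold change in the comparison that chose the set. It had 58.8, 62.4 and 92.2 CPM in HFD plus HQHF livers, 47.7, 65.3, 54.0 and 67.4 CPM in HFD livers and 36.5, 55.4 and 41.2 CPM in control livers. All 3 HFD plus HQHF libraries stood above all 3 control libraries, and the HFD libraries overlapped both. Its log2 fold change was 0.40 ± 0.21 in HFD against control (edgeR adjusted p = 0.176), 0.28 ± 0.21 in HFD plus HQHF against HFD (edgeR adjusted p = 0.358) and 0.68 ± 0.22 in HFD plus HQHF against control. By library totals it had 104 CPM in the left-out HFD plus HQHF 3 and 468 CPM in the left-out control 2.

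Srsf4, a large SR protein with a long arginine and serine tail, passed in neither tested comparison with TMM scaling and its groups overlapped. With library totals it was called higher in HFD against control (log2 fold change 0.659, edgeR adjusted p = 0.0198). It was then called lower in HFD plus HQHF against HFD (-0.542, edgeR adjusted p = 0.0468). The medians of all genes there were 0.657 and -0.616. It had 19.6, 20.6 and 22.9 CPM in HFD plus HQHF livers, 23.0, 24.6, 18.3 and 18.2 CPM in HFD livers and 13.9, 25.3 and 20.9 CPM in control livers. Srsf6, another exon-binding SR protein chosen here after its values were seen, had 35.8 to 50.9 CPM in HFD livers and 51.2 to 72.8 CPM in control livers, which do not overlap, with a log2 fold change of -0.41 ± 0.17 (edgeR adjusted p = 0.0865). Srsf1, which also acts in export and translation of mRNA, had 39.5, 45.9 and 49.0 CPM in HFD plus HQHF livers, 36.5, 36.7, 50.3 and 37.5 CPM in HFD livers and 54.8, 51.0 and 49.8 CPM in control livers (log2 fold change -0.37 ± 0.15 in HFD against control, edgeR adjusted p = 0.0846). HFD 3 stood apart from the other HFD libraries and overlapped the control libraries. Srsf3, the smallest SR protein, had 39.5, 41.8 and 55.2 CPM in HFD plus HQHF livers, 31.6, 41.1, 54.9 and 45.2 CPM in HFD livers and 53.7, 49.5 and 38.4 CPM in control livers, with all groups overlapping. Srsf7, Srsf9, Srsf10 and Srsf11 overlapped in every comparison too, with log2 fold changes between -0.28 and 0.02.

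The median log2 fold change over the 10 tested SR genes was -0.095 in HFD against control, or 0.512 with library totals, and -0.014 in HFD plus HQHF against HFD.

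Among the hnRNP genes, Hnrnpc was the one gene of the set that passed in both tested comparisons. The hnRNP C protein binds runs of U in nascent RNA and in human cells keeps sequences of transposable elements from being taken up as exons. It had 71.5, 85.7 and 72.3 CPM in HFD plus HQHF livers, 55.8, 57.3, 61.6 and 56.1 CPM in HFD livers and 79.2, 71.7 and 77.3 CPM in control livers. The 4 HFD libraries stood below all 6 others, and the HFD plus HQHF and control libraries overlapped. The log2 fold change was -0.40 ± 0.12 in HFD against control (edgeR quasi-likelihood adjusted p = 0.0341) and 0.41 ± 0.12 in HFD plus HQHF against HFD (adjusted p = 0.0397). It was 0.01 ± 0.13 in HFD plus HQHF against control, given as a description. These comparisons share libraries, so the fall and the rise both rest on the 4 HFD libraries.

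Both Hnrnpc calls were close to the threshold. Of the 10 fits that left out 1 library each, 5 kept the call in HFD against control, which was lost without HFD 1, HFD 2, HFD 4, control 1 or control 4, with an edgeR adjusted p of up to 0.1. For HFD plus HQHF against HFD, 4 of the 10 kept it, and it was lost without HFD plus HQHF 1, 2 or 4 or HFD 1, 2 or 4, with an adjusted p of up to 0.140, and it was lost with no filter on low counts (edgeR adjusted p = 0.0539). With library totals the log2 fold changes were 0.21 in HFD against control and -0.14 in HFD plus HQHF against HFD, so both turned.

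Hnrnpl, which binds CA repeats in introns and untranslated ends, had 95.5, 71.8 and 106 CPM in HFD plus HQHF livers, 119, 116, 104 and 112 CPM in HFD livers and 132, 129 and 156 CPM in control livers. Control libraries stood above all others. Its log2 fold change was -0.30 ± 0.16 in HFD against control (edgeR adjusted p = 0.178) and -0.31 ± 0.16 in HFD plus HQHF against HFD (edgeR adjusted p = 0.188), so it passed in neither, and it was -0.61 ± 0.17 in HFD plus HQHF against control.

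Hnrnpf and Hnrnph3, which belong to the hnRNP F and H subfamily that binds runs of G, were among the 5 members with the highest log2 fold change in HFD plus HQHF against control. Hnrnpf had 133, 135 and 152 CPM in HFD plus HQHF livers, 134, 124, 131 and 133 CPM in HFD livers and 153, 157 and 113 CPM in control livers. Hnrnph3 had 6.95, 8.27 and 8.50 CPM in HFD plus HQHF livers, 6.21, 7.004, 7.59 and 5.12 CPM in HFD livers and 9.38, 6.18 and 6.92 CPM in control livers. The groups of both genes overlapped in every comparison, and neither passed a test.

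Hnrnpa1 and Hnrnpa2b1, the core proteins that coat nascent RNA, varied between livers of a group. Hnrnpa1 had 39.3, 35.3 and 38.3 CPM in HFD plus HQHF livers, 35.4, 31.3, 58.0 and 55.2 CPM in HFD livers and 56.6, 33.7 and 34.1 CPM in control livers. Hnrnpa2b1 had 96.7, 112 and 100.4 CPM in HFD plus HQHF livers, 97.2, 77.5, 115 and 100.1 CPM in HFD livers and 164, 117 and 91.7 CPM in control livers. Control 1 was the highest or second highest of the 10 libraries for both genes, and the groups overlapped. Neither gene passed edgeR's test with TMM scaling. Library totals called Hnrnpa1 higher in HFD against control and lower in HFD plus HQHF against HFD, and did not call Hnrnpa2b1.

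Hnrnpu, a scaffold of nuclear RNA and chromatin, Hnrnpm, which binds GU-rich RNA, and Hnrnph2 did not pass edgeR's test of the 10 libraries with TMM scaling. DESeq2 called Hnrnpu, Hnrnpm and Hnrnph2 lower in HFD against control, as it did Hnrnpab, and edgeR with another scaling, RLE, called Hnrnph2. These genes are named after their values were seen. Hnrnpu had 124, 127 and 170 CPM in HFD plus HQHF livers, 153, 123, 138 and 143 CPM in HFD livers and 233, 199.9 and 149.6 CPM in control livers. The groups of Hnrnpu overlapped through control 4, the lowest control library. In HFD against control the log2 fold change was -0.48 ± 0.19 for Hnrnpu (edgeR adjusted p = 0.0769), -0.46 ± 0.17 for Hnrnpm (edgeR adjusted p = 0.0681) and -0.43 ± 0.16 for Hnrnph2 (edgeR adjusted p = 0.0642). Hnrnpab held a narrow range in HFD livers, at 96.4, 95.1, 97.8 and 96.7 CPM, with 77.2, 94.5 and 81.2 CPM in HFD plus HQHF livers and 127, 114 and 107 CPM in control livers. Its HFD libraries lay between the other 2 groups without overlap, with an edgeR adjusted p of 0.143 in HFD against control and 0.300 in HFD plus HQHF against HFD. The median log2 fold change over the 20 hnRNP genes was -0.221 in HFD against control (0.367 with library totals) and 0.022 in HFD plus HQHF against HFD (-0.527 with library totals). Hnrnpa1 and other hnRNP genes have processed copies elsewhere in the genome, and their counts are uncertain to that extent.

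Among the SF3 genes, Sf3b6, whose product sits beside the branch point in the U2 particle, was lower in HFD livers. It had 19.6, 26.5 and 14.5 CPM in HFD plus HQHF livers, 14.2, 14.7, 17.5 and 13.2 CPM in HFD livers and 22.3, 21.7 and 24.9 CPM in control livers. All 4 HFD libraries stood below the 3 control libraries, and the HFD plus HQHF libraries spread over both. The log2 fold change was -0.62 ± 0.19 in HFD against control (edgeR quasi-likelihood adjusted p = 0.0345) and 0.44 ± 0.19 in HFD plus HQHF against HFD (adjusted p = 0.120), and it was -0.18 ± 0.20 in HFD plus HQHF against control. Of the fits without 1 library, 3 of 10 kept the call in HFD against control, and it was lost without HFD plus HQHF 1, HFD 1, 2 or 4, or any control library, with an edgeR adjusted p of up to 0.0972. With library totals its log2 fold change in HFD against control was -0.01.

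The other SF3 genes did not pass edgeR's test of the 10 libraries with TMM scaling, and DESeq2 called Sf3b1 lower in HFD against control. Sf3b1, which clamps the branch point, had 104, 104, 102 and 116 CPM in HFD livers and 142, 132 and 131 CPM in control livers, which do not overlap (log2 fold change -0.35 ± 0.14, edgeR adjusted p = 0.0866). Sf3a2 had the lowest log2 fold change of the 42 in HFD plus HQHF against HFD, at -0.55 ± 0.27 (edgeR adjusted p = 0.157), with 8.04, 6.18 and 12.6 CPM in HFD plus HQHF livers and 14.2, 15.1, 9.21 and 14.1 CPM in HFD livers. Both genes are named after their values were seen. Sf3b5 spread most of the tested members in HFD and control livers, with an SD of 0.567 on the log2 scale in HFD livers and 0.973 in control livers. The median log2 fold change over the 9 SF3 genes was -0.126 in HFD against control, or 0.463 with library totals, and -0.111 in HFD plus HQHF against HFD.

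Sltm, Safb and Sfpq were 3 of the 4 members with the lowest log2 fold change in HFD plus HQHF against control, with Srsf2, which is how they came to be chosen. Safb encodes scaffold attachment factor B, which binds chromatin-anchoring DNA and nuclear RNA. It had 19.3, 18.5 and 17.7 CPM in HFD plus HQHF livers, 21.9, 19.0, 19.1 and 20.7 CPM in HFD livers and 35.7, 28.6 and 28.8 CPM in control livers. All 7 libraries on the high-fat diet stood below the 3 control libraries. The log2 fold change was -0.62 ± 0.12 in HFD against control (edgeR quasi-likelihood adjusted p = 0.00777), and Safb was the 1 member called in that comparison in all 10 fits without 1 library (adjusted p up to 0.0338). It was -0.12 ± 0.13 in HFD plus HQHF against HFD (edgeR adjusted p = 0.509) and -0.75 ± 0.14 in HFD plus HQHF against control. With library totals the log2 fold change in HFD against control was -0.03 (edgeR adjusted p = 0.883), where the median of all genes was 0.657.

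Sfpq encodes a paraspeckle protein that pairs with NONO and takes part in splicing and transcription. It had 31.6, 36.0 and 42.5 CPM in HFD plus HQHF livers, 50.5, 51.2, 46.0 and 56.1 CPM in HFD livers and 60.1, 61.3 and 49.8 CPM in control livers. The 3 HFD plus HQHF libraries stood below all 7 others, and HFD and control libraries overlapped. Sfpq was lower in HFD plus HQHF than in HFD livers, with a log2 fold change of -0.47 ± 0.14 (edgeR quasi-likelihood adjusted p = 0.0419), and with library totals it was -1.02 (adjusted p = 0.00158), where the median of all genes was -0.616. Of the fits without 1 library 3 of 10 kept the call, and it was lost without HFD plus HQHF 1 or 2, HFD 1, 2 or 4, or control 1 or 3, with an edgeR adjusted p of up to 0.168. It was also lost with RLE scaling (edgeR adjusted p = 0.052), with no filter on low counts (0.0608) and with only the 2 groups compared (0.0734). The log2 fold change was -0.16 ± 0.14 in HFD against control (edgeR adjusted p = 0.410) and -0.64 ± 0.15 in HFD plus HQHF against control. The RefSeq span of Sfpq overlaps that of Zmym1. Of the 43 members, 15 overlap another gene in this way, among them Srsf4, Hnrnpf, Hnrnph3, Hnrnpu and Hnrnpab, so the limit given for Srsf2 holds for their counts too.

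Sltm, a relative of Safb, passed in neither tested comparison with TMM scaling on the 10 libraries. Library totals called it lower in HFD plus HQHF against HFD (log2 fold change -0.889, edgeR adjusted p = 0.0113), where the median of all genes was -0.616. It had 9.25, 11.9 and 8.79 CPM in HFD plus HQHF livers, 13.3, 13.1, 13.0 and 11.6 CPM in HFD livers and 19.9, 19.3 and 12.0 CPM in control livers. HFD plus HQHF libraries stood below the control libraries, of which control 4 was low and fell among the HFD libraries. The log2 fold change was -0.43 ± 0.19 in HFD against control (edgeR adjusted p = 0.111), -0.35 ± 0.19 in HFD plus HQHF against HFD (edgeR adjusted p = 0.208) and -0.78 ± 0.20 in HFD plus HQHF against control, the lowest of the 42.

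**Figure D2:**
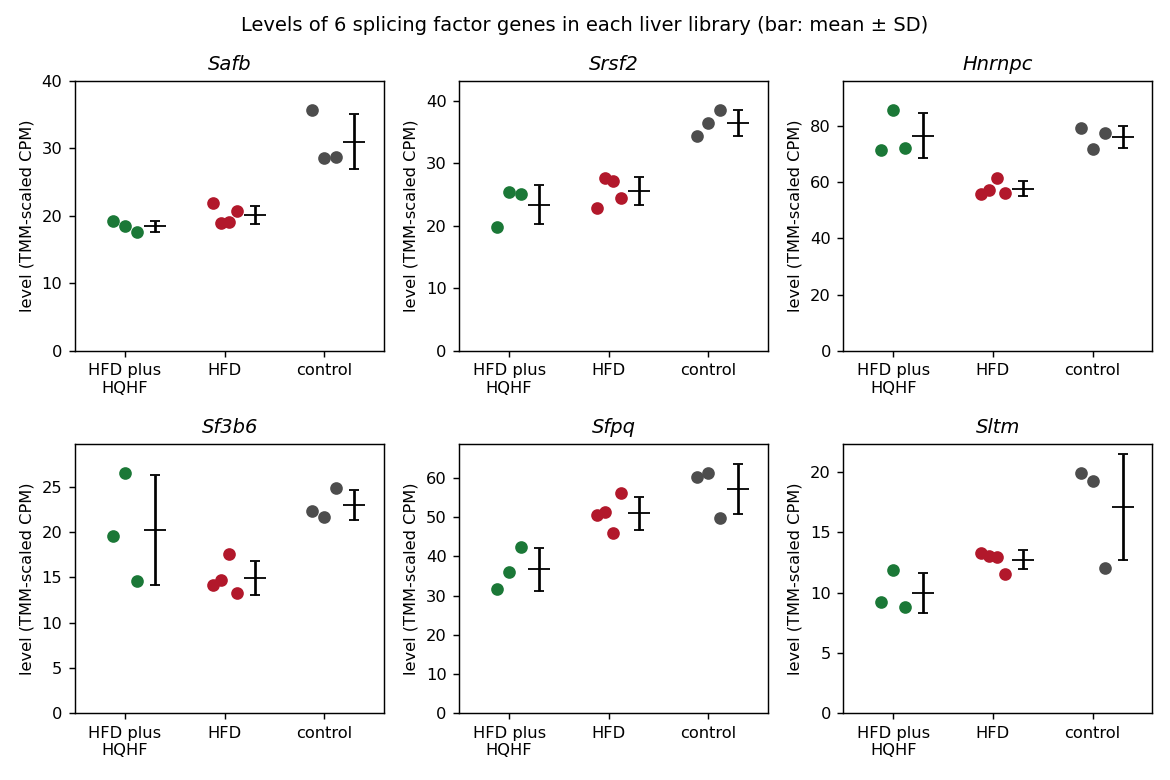
Level in CPM with TMM scaling (y axis) of Safb, Srsf2, Hnrnpc, Sf3b6, Sfpq and Sltm in each of 3 HFD plus HQHF, 4 HFD and 3 control libraries (points), with the mean ± SD beside each group. Safb and Srsf2 were low in both groups on the high-fat diet, Hnrnpc was low in the HFD livers, at 55.8 to 61.6 CPM, and Sfpq was low in the HFD plus HQHF livers, at 31.6 to 42.5 CPM.

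With HQHF on the high-fat diet, 1 of 42 members was called higher than in HFD livers, Hnrnpc, and 1 lower, Sfpq. Those are 2.38% of the members in each direction, against 7.85% of all tested genes called higher and 11.1% called lower by edgeR's quasi-likelihood test. At an unadjusted p under 0.05 there were 2 members higher and 1 lower, where 14.6% of all genes were higher and 21.5% lower. The median log2 fold change of the members was -0.044 and that of all genes -0.068, with 17 members above 0 and 25 below, where 45% of all genes lay above and 55% below. With library totals the medians were -0.593 and -0.616, 0 members and 11.4% of all genes lay above 0, and 25 members were called lower and 0 higher, where 47% of all genes were called lower and 0.99% higher. DESeq2 called Hnrnpc higher and Sfpq lower, where it called 12.7% of all genes higher and 15.4% lower.

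Counting libraries rather than p-values, 10 of 42 members (23.8%) had all HFD libraries below all control libraries, against 15.9% of all genes, and 0 had them above, against 20.8%. These 10 were Srsf2, Srsf6, Hnrnpab, Hnrnpc, Hnrnph2, Hnrnpl, Sf3b1, Sf3b2, Sf3b6 and Safb. Between HFD plus HQHF and HFD livers, Hnrnpc lay above without overlap and Sfpq and Hnrnpab below, against 13.5% of all genes above and 17.2% below.

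Against control, the comparison that chose the set, 38 of 42 members had a log2 fold change below 0 in HFD plus HQHF livers and 4 above, where 47.8% of all genes lay below and 52.2% above. The members' median was -0.245 and that of all genes 0.018, and with library totals these were -0.198 and 0.069. Of the members, 10 lay below control livers without overlap, where 6.72% of all genes did, and Srsf5 lay above, where 8.4% of all genes did. By edgeR's quasi-likelihood test 0 of 13832 genes (0%) were called, at an unadjusted p under 0.05 there were 3.7% of all genes higher and 3.59% lower, and DESeq2 called 72 genes. The 5 lowest log2 fold changes were those of Sltm, Safb, Srsf2, Sfpq and Hnrnpl, at -0.78 to -0.61, and the 5 highest were those of Srsf5, Hnrnph3, Srsf4, Hnrnpc and Hnrnpf, at 0.68 to -0.004. Nothing follows from these counts beyond how the set was picked.

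The summed level of all 43 genes was 1850, 1931 and 2220 CPM in HFD plus HQHF livers, 1993, 1929, 2052 and 2074 CPM in HFD livers and 2569, 2404 and 2145 CPM in control livers with TMM scaling. The means were 2000 ± 194 CPM (SD, n = 3) in HFD plus HQHF livers, 2012 ± 65.1 CPM (SD, n = 4) in HFD livers and 2373 ± 214 CPM (SD, n = 3) in control livers. Control libraries stood above all HFD libraries and overlapped the HFD plus HQHF libraries. By library totals the order changed: 1522, 1813 and 1879 CPM in HFD plus HQHF livers, 2394, 2351, 2892 and 2597 CPM in HFD livers and 2209, 2144 and 1636 CPM in control livers, with HFD livers above all others. The SFPQ, SAFB and SLTM genes together held 60.2 to 68.9 CPM in HFD plus HQHF livers with TMM scaling. They held 78.0 to 88.3 CPM in HFD livers and 90.5 to 116 CPM in control livers, without overlap between the groups. These genes were chosen for low values in HFD plus HQHF against control livers, so nothing follows from the gap between those groups. By library totals they held 49.5 to 62.3 CPM in HFD plus HQHF livers, 101 to 111 CPM in HFD livers and 69.1 to 99.5 CPM in control livers, so the order of HFD and control livers changed.

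**Figure D3:**
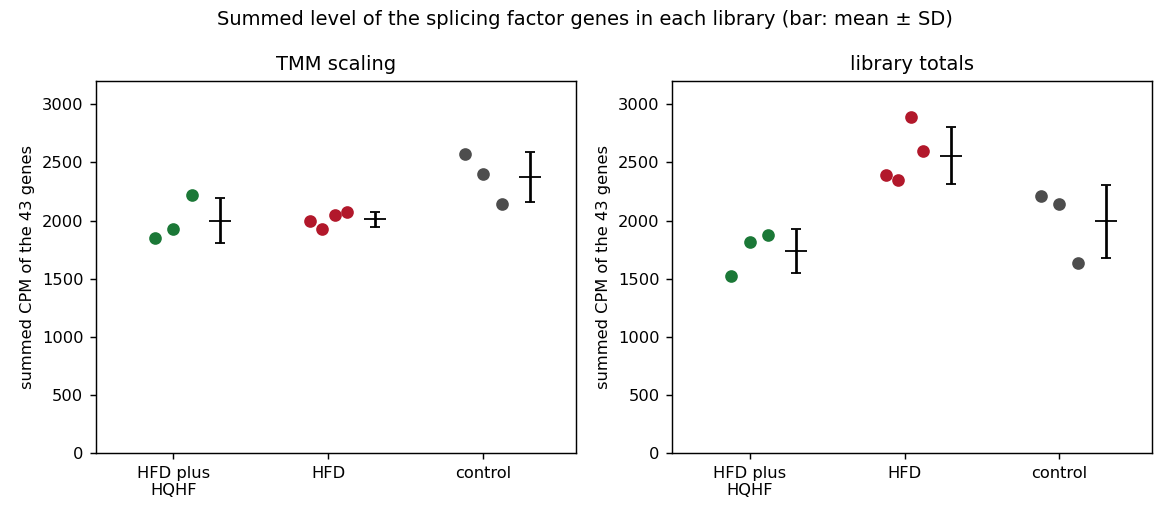
Summed CPM of the 43 splicing factor genes (y axis) in each library (points; 3 HFD plus HQHF, 4 HFD and 3 control), with the mean ± SD, under TMM scaling on the left and library totals on the right. HFD libraries lie below the control libraries on the left, at 1929 to 2074 CPM, and above them on the right, at 2351 to 2892 CPM.

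Members differed in how far they varied within a group. The median SD of a member on the log2 scale was 0.224 in HFD plus HQHF livers, 0.187 in HFD livers and 0.249 in control livers. Among tested members the SD ran from 0.063 (Safb) to 0.586 (Sf3b3) in HFD plus HQHF livers and from 0.017 (Hnrnpab) to 0.567 (Sf3b5) in HFD livers. It ran from 0.029 (Sf3a1) to 0.973 (Sf3b5) in control livers. Of the members, 18 had their highest level of the 10 libraries in control 1, 5 each in control 3, control 4 and HFD plus HQHF 4, and 4 in HFD 3.

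Some cell type markers also differed between the groups. In HFD against control, edgeR called 2 of 12 Kupffer cell genes higher and 4 lower, 1 of 12 endothelial cell genes higher and 0 lower, and 0 of 8 B and plasma cell genes. The 12 genes of monocytes and recruited macrophages summed to 90.9 to 123 CPM in HFD plus HQHF livers, 301 to 832 CPM in HFD livers and 87.4 to 120 CPM in control livers, and 11 of the 12 were called higher in HFD than in control livers by edgeR. The 12 stellate cell genes summed to 335 to 441 CPM in HFD plus HQHF livers and 389 to 1052 CPM in HFD livers. In control livers they summed to 314 to 425 CPM, so the groups overlapped. Of these genes, 8 were called higher in HFD than in control livers. The 16 hepatocyte genes summed to 113500 to 156300 CPM in HFD plus HQHF livers, 56990 to 101900 CPM in HFD livers and 151600 to 181000 CPM in control livers, with 8 called lower in HFD than in control livers and 4 with library totals. As a share of counts they took 9.34 to 13.2% in HFD plus HQHF livers, 8.03 to 12.8% in HFD livers and 13.0 to 16.1% in control livers, so HFD plus HQHF overlapped both other groups. The 13 mitochondrially encoded genes took 2.40 to 5.65% of counts in HFD plus HQHF livers, 3.25 to 5.07% in HFD livers and 5.22 to 5.99% in control livers. None of the genes of these lists was at 0 in a group. In bulk liver, fewer cells of a type and less RNA per cell cannot be told apart, and the part of these shifts in the values of Safb, Srsf2, Hnrnpc, Sf3b6 and Sfpq was not tested. Acinar cell genes of the pancreas summed to at most 10.4 CPM in HFD plus HQHF libraries and 25.7 CPM in HFD libraries, and to 3663 CPM in control 1, against 6.25 CPM in control 3 and 7.43 CPM in control 4. Control 1 is also the library in which 18 members had their highest level. Without it, Safb and Srsf2 were the members called lower in HFD against control, Hnrnpc (edgeR adjusted p = 0.1) and Sf3b6 (edgeR adjusted p = 0.0791) were not, and Sfpq was not called in HFD plus HQHF against HFD (edgeR adjusted p = 0.0551), where Hnrnpc still was (edgeR adjusted p = 0.0488). The part of the acinar RNA in these values was not tested.

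The genes around the set in the splicing pathway were taken from 7 lists of regulators and spliceosome parts. Of the 88 tested genes of the lists, 6 (6.82%) were lower and 0 higher in HFD against control, and 1 was higher and 1 lower in HFD plus HQHF against HFD, by edgeR's quasi-likelihood test, beside the shares of all genes given above. DESeq2 called 13 lower (14.8%) and 0 higher in HFD against control, near its share of 14.6% of all genes lower, and 3 higher and 1 lower in HFD plus HQHF against HFD, where it called 12.7% of all genes higher and 15.4% lower. With library totals, 35 (39.8%) were called higher in HFD against control, where 50.9% of all genes were, and 49 (55.7%) lower in HFD plus HQHF against HFD, where 47% of all genes were. Of the calls described next, that of Ptbp1 kept its direction and passed with library totals (log2 fold change -1.24), and the others did not pass, such as U2af1 in HFD against control at -0.29 (edgeR adjusted p = 0.181).

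U2af1, the small subunit of the factor that reads the AG at the end of an intron, was the gene of the lists that moved in both tested comparisons. It had 34.2 ± 2.93 CPM (SD, n = 3) in HFD plus HQHF livers, 22.4 ± 3 CPM (SD, n = 4) in HFD livers and 41.5 ± 2.21 CPM (SD, n = 3) in control livers. Its log2 fold change was -0.89 ± 0.13 in HFD against control (edgeR adjusted p = 0.00328) and 0.61 ± 0.14 in HFD plus HQHF against HFD (edgeR adjusted p = 0.0149). The first call held in all 10 fits without 1 library, and the second was lost without HFD plus HQHF 1 (edgeR adjusted p = 0.0585). Luc7l, a partner of the U1 particle, was lower in HFD livers at 16.2 ± 2.95 CPM, against 28.3 ± 0.986 CPM in control livers (SD, n = 4 and 3; log2 fold change -0.80 ± 0.17, edgeR adjusted p = 0.01), and this call held in all 10 such fits. Of 13 genes of the U1 and U2 particles outside SF3, these 2 were lower in HFD against control, and U2af1 was higher in HFD plus HQHF against HFD.

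Of 25 tested SR-related proteins and other splicing regulators, 2 were lower in HFD livers. Tra2b, an SR-like activator of exons, had 21.5 ± 5.64 CPM in HFD livers, against 32.6 ± 4.50 CPM in control livers (SD, n = 4 and 3), with a log2 fold change of -0.60 ± 0.20 (edgeR adjusted p = 0.0431). Esrp2, which drives the adult splicing programme of hepatocytes, had 51.9 ± 8.95 CPM in HFD livers, against 75.9 ± 14.3 CPM in control livers, with a log2 fold change of -0.55 ± 0.18 (edgeR adjusted p = 0.0473). Ptbp1, which binds pyrimidine tracts and represses exons, was the list's gene called in HFD plus HQHF against HFD, at 56.0 ± 7.84 CPM in HFD plus HQHF livers and 90.9 ± 17.6 CPM in HFD livers (SD, n = 3 and 4; log2 fold change -0.70 ± 0.19, edgeR adjusted p = 0.031). These calls were close to the threshold. Of the 10 fits without 1 library, 2 kept Tra2b (without HFD plus HQHF 4 or HFD 3), 3 kept Esrp2 (without HFD plus HQHF 4, HFD 2 or control 1) and 5 kept Ptbp1, which was lost without HFD plus HQHF 1 or 2, HFD 1 or 2, or control 3. The edgeR adjusted p reached 0.147 for Tra2b, 0.13 for Esrp2 and 0.121 for Ptbp1 in these fits. With no filter on low counts the edgeR adjusted p was 0.0507 for Tra2b and 0.0574 for Esrp2, and with a filter of 1 CPM in 3 libraries it was 0.0571 for Tra2b and 0.0594 for Esrp2. With only the 2 groups compared it was 0.0596 for Tra2b, 0.0579 for Esrp2 and 0.0585 for Ptbp1.

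Of 8 paraspeckle and FET proteins, Tardbp, which binds UG repeats and keeps cryptic exons out, was lower in HFD livers at 36.0 ± 3.32 CPM, against 55.9 ± 10.9 CPM in control livers (log2 fold change -0.63 ± 0.16, edgeR adjusted p = 0.0179). Its call was lost without control 1 (edgeR adjusted p = 0.076). Nono, the partner of Sfpq, had a log2 fold change of -0.30 in HFD against control and was not called. Of 18 proteins of the U4/U6.U5 particle and the catalytic steps, Prpf6, which bridges the parts of that particle, was lower in HFD livers at 44.0 ± 2.55 CPM, against 62.4 ± 2.67 CPM in control livers (log2 fold change -0.50 ± 0.13, edgeR adjusted p = 0.0204). Its call was lost without control 1 or control 4, with an edgeR adjusted p of up to 0.0586. No gene of these 2 lists was called in HFD plus HQHF against HFD by edgeR or by DESeq2, and 0 had an unadjusted p under 0.05.

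None of the 10 kinases and phosphatases of SR proteins was called in either comparison by edgeR or DESeq2, and at an unadjusted p under 0.05 there was 1 lower in HFD against control and 1 higher in HFD plus HQHF against HFD. Those with the smallest p in HFD against control were Clk1, with a log2 fold change of -0.54 (adjusted p = 0.112), and Clk4, at -0.29 (adjusted p = 0.329), both kinases that phosphorylate SR proteins in the nucleus. The 7 Sm core proteins, which form the ring of the spliceosomal particles, and the 7 nuclear helicases had no edgeR call either. DESeq2 called 1 gene of each lower in HFD against control, and at an unadjusted p under 0.05 there was 1 of each lower there, and 0 Sm genes and 2 helicases lower in HFD plus HQHF against HFD. The list medians in HFD against control lay between -0.185 and 0.092, beside 0.058 over all genes.

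**Figure D4:**
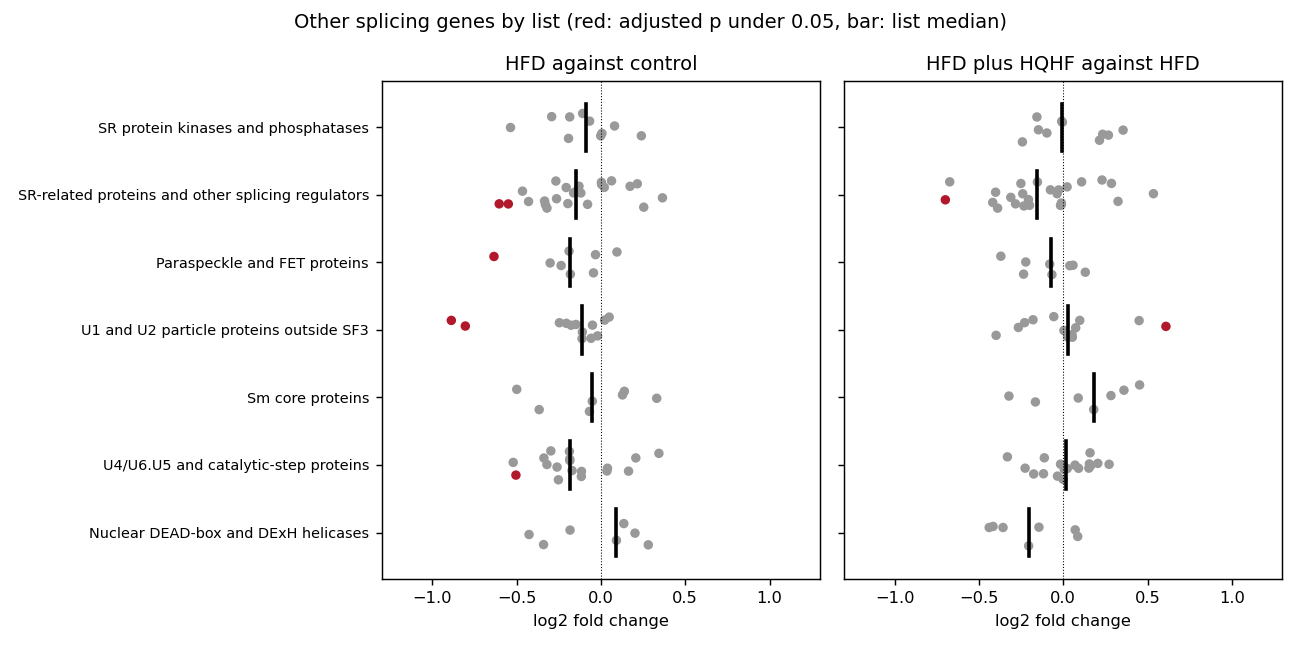
Log2 fold change with TMM scaling (x axis) of each tested gene (points) of 7 lists of splicing genes (y axis) in HFD against control on the left and HFD plus HQHF against HFD on the right, with black bars for list medians. Red points passed the test: 6 genes below 0 on the left, and U2af1 at 0.61 and Ptbp1 at -0.70 on the right.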

How the data were processed

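Stranded total RNA libraries were made from liver RNA after removal of ribosomal RNA, per the labels. The values are whole-number counts per gene deposited by the authors, with no normalization. The submitters' processing notes name HISAT2, RSEM and GRCm39, with no version or role for either tool. How reads were counted, and whether by strand, is not stated in the labels or notes.

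Genes were fitted with edgeR 4.0.16 in R 4.3.3 (filterByExpr by group, TMM, robust glmQLFit, glmQLFTest) on 10 libraries and 3 groups, with 13832 genes tested and Benjamini-Hochberg adjustment over all of them at 0.05. An SE is the size of the log2 fold change divided by the square root of F. CPM used TMM-scaled library sizes. Other settings were DESeq2 1.42.0, RLE scaling, library totals, no filter, a filter of 1 CPM in 3 libraries, all 12 libraries, the compared groups alone, a block for replicate number, and leaving out each library in turn. Figures were drawn with matplotlib 3.10.9.

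On simulated counts for 13673 genes, the fit recovered 3.03% of 1.5-fold, 42.4% of 2-fold and 83.1% of 4-fold changes in HFD against control, and 1.52%, 42.4% and 84.6% in HFD plus HQHF against HFD. Batch codes differ for every mouse, which left no batch term to fit. No label ties replicate numbers across groups, and p-values measure the spread between the mice sampled. No library was a copy of another, but HFD 1 and HFD 2 were the closest pair within a group. Their deviations from the group mean correlated at 0.245, where those of all other pairs within a group correlated below 0. Deviations from a group's own mean tend to correlate below 0 by construction, so nothing follows from the sign in those pairs. The chi-square per degree of freedom between the counts of HFD 1 and HFD 2 was 59.7. It was 149 to 413 for the other pairs within a group. The cause of this closeness was not tested.

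The members and lists were chosen with earlier results of these data known, and the lists were written by hand. The genes named by rule were Srsf2, Sfpq, Safb and Sltm, every member called in a tested comparison, the 5 highest and 5 lowest log2 fold changes in HFD plus HQHF against control, and the 2 genes with the smallest p of each pathway list, of which those with calls and a few others are printed. Small RNA was not used here. A list of nuclear-retained RNAs had 1 of 8 genes in the table and gave no usable level.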

Additional observations from a re-analysis of the deposited data

Results flagged for a closer look

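Within groups of 4 libraries, 3 of the 47 values examined had 1 library set apart from the other 3 by most of the group's range, where chance flags about 1 in 20 groups. Srsf1 stood at 50.3 CPM in HFD 3, with 36.5, 36.7 and 37.5 CPM in the other HFD livers. Hnrnpul1 stood at 69.8 CPM in HFD 3, with 83.1, 83.8 and 84.7 CPM in the others. Sf3b1 stood at 115.6 CPM in HFD 4, with 101.9, 103.5 and 103.5 CPM in the others. In HFD plus HQHF 3, a library left out of the comparisons, the members summed to 2871 CPM by library totals. That is above the 2209, 2144 and 1636 CPM of the control livers kept, and below the 4506 CPM of control 2, also left out. Both left-out libraries almost wholly lacked Alb, so these values do not compare livers.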

How the results depend on the processing

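Library totals, which shift all genes by about the medians given above, changed the most. Members called numbered 9 (against 4) in HFD against control and 25 (against 2) in HFD plus HQHF against HFD. All genes called numbered 7195 (7041 higher) in HFD against control and 6633 (6496 lower) in HFD plus HQHF against HFD. Pathway genes called numbered 35 (against 6) and 49 (against 2). Members above 0 went from 9 to 40 of 42 in HFD against control, where all genes went from 54% to 89.8%. In HFD plus HQHF against HFD members went from 17 to 0, and all genes from 45% to 11.4%. The turns listed next are only those of genes named by rule, from the members and the pathway lists. Directions turned in HFD against control for Sfpq (0.42), Sltm (0.15), Srsf2 (0.094), Hnrnpc (0.21), Hnrnpl (0.30), Hnrnpf (0.48), Hnrnph3 (0.40), Clk4 (0.31), Clk1 (0.071), Tra2b (0.011), Esrp2 (0.044), Nono (0.29), Snrpd3 (0.088), Prpf6 (0.10), Ddx23 (0.26), Dhx36 (0.26) and Dhx9 (0.16). They turned in HFD plus HQHF against HFD for Sf3b6 (-0.10), Hnrnpc (-0.14), Hnrnpf (-0.44), Hnrnph3 (-0.27), Srsf5 (-0.27), Clk3 (-0.18), Esrp2 (-0.008), Luc7l (-0.10), Snrpd2 (-0.10), Snrpg (-0.27) and Prpf6 (-0.29), all log2 fold changes.

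DESeq2 called 11 members and 13 pathway genes in HFD against control, 4 pathway genes in HFD plus HQHF against HFD, and 3 members, 1 pathway gene and 72 genes in HFD plus HQHF against control, where the count of members tests nothing, since that comparison chose them. With all 12 libraries, 0 members and 0 pathway genes were called in either tested comparison, and 7 genes in HFD against control and 1 in HFD plus HQHF against HFD. There Srsf5 turned to -0.847 and Snrpf to -0.765 in HFD against control. In HFD plus HQHF against HFD, RLE scaling called 1 member and no filter 0. Using only the 2 groups compared called 1 member and 1 pathway gene there, and 1 gene in HFD plus HQHF against control.

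Same-numbered libraries showed little shared deviation (8 pairs, correlations of -0.094 to 0.152, 1 over 0.1). So few pairs cannot exclude a pairing, and no label gives one. With the replicate block, 0 members, 1 pathway gene and 1719 genes were called in HFD plus HQHF against HFD, and 3 members in HFD against control. The calls lost with the block were Hnrnpc in HFD against control (edgeR adjusted p = 0.0757) and in HFD plus HQHF against HFD (0.11), Tra2b (0.0836), Esrp2 (0.0715) and Prpf6 (0.0677) in HFD against control, and Sfpq (0.0958) and Ptbp1 (0.0527) in HFD plus HQHF against HFD.

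Leaving out each library in turn called 2 to 6 members, 3 to 7 pathway genes and 1568 to 3882 genes in HFD against control. In HFD plus HQHF against HFD it called 0 to 4 members, 0 to 4 pathway genes and 633 to 3301 genes. The counts of members fell to 2 in HFD against control without HFD 1, 2 or 4 or control 1, and in HFD plus HQHF against HFD to 0 without HFD plus HQHF 1 or 2 or HFD 1, 2 or 4. Without control 1, 3 or 4, all genes called numbered 1568, 1757 and 2078 in HFD against control, and without HFD plus HQHF 1, 2 or 4 or HFD 1 they numbered 633, 803, 1703 and 1629 in HFD plus HQHF against HFD. Srsf4, near 0, turned to -0.01 without HFD 2 and -0.14 without control 1 in HFD against control. In HFD plus HQHF against HFD it turned to 0.038 (RLE, DESeq2), 0.006 (no filter), 0.09 (all 12 libraries), 0.052 (only the groups compared) and 0.021 (replicate block), and ran from -0.068 to 0.08 without 1 library. The causes were not tested. The simulations recovered few 1.5-fold changes, so changes of that size may be missed with 3 or 4 libraries a group. They changed far fewer genes than were called in the data, which alters the adjusted p, so the share missed here is not known.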
